A study of Mus musculus with 20 samples.

Results

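The dual specificity phosphatase genes Dusp1, Dusp2, Dusp4, Dusp5, Dusp6, Dusp8, Dusp10 and Dusp16 and the Sprouty genes Spry2 and Spry4 were followed in Hepa1-6 cells, a mouse hepatoma line of the C57L strain, over 10 h with TGFβ1. The 10 genes were chosen by symbol, with earlier results of these data known. Every probe set that the platform annotation assigns to one of these symbols alone was taken. This gave 18 of the 45037 probe sets of the table and 10 of the 18193 genes tested. The brightest probe set over the 20 arrays stands for each gene, and the 8 other probe sets are described after the genes. The groups were cells with 1 ng/ml TGFβ1 for 0, 1, 3, 6 and 10 h and basal cells, which received no TGFβ1, at the same 5 times. All groups had been in medium depleted of growth factors since 4 h before the start. The labels describe the 0 h samples of both arms as equivalent. Each group had 2 cultures with 1 Affymetrix array each, 20 arrays in all, of 1 cell line.

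Values are log2 expression, so a difference of 1 is a doubling. The differences below are TGFβ1-treated minus basal cells of the same time, with the standard error (SE) from limma over all 20 arrays, and rose, fell and changed are used at an adjusted p under 0.05 (Benjamini-Hochberg, over all 18193 genes). A fold is that log2 difference turned to the linear scale. An array reports a whole culture, so a smaller share of cells that express a gene and less RNA per cell cannot be told apart.

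Mitogen-activated protein kinases (MAP kinases) are switched on when a threonine and a tyrosine of their activation loop are both phosphorylated. The phosphatases encoded by Dusp1, Dusp2, Dusp4, Dusp5, Dusp6, Dusp8, Dusp10 and Dusp16 remove both phosphates and switch the kinases off. They differ in place and target: the products of Dusp1, Dusp2, Dusp4 and Dusp5 are nuclear, that of Dusp6 is cytoplasmic and acts on ERK, and those of Dusp8, Dusp10 and Dusp16 act mainly on JNK and p38. Sprouty proteins inhibit signalling by receptor tyrosine kinases through Ras to ERK. Many of these genes are transcribed in answer to the pathway they inhibit and so form negative feedback. TGFβ receptors activate SMAD transcription factors and can also activate MAP kinases.

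The 45037 probe sets had array medians between 5.15 and 5.21, the median gene had a mean level of 6.31, and duplicates correlated at 0.9958 to 0.9971. The TGFβ targets Klf10, Smad7 and Skil were higher in TGFβ1-treated cells at 1, 3, 6 and 10 h, Klf10 by 11.9-fold at 1 h. Of 10 measured hepatocyte and hepatoma markers, 7 lay above the median gene, with Alb at 12.01 and Afp at 12.78, whereas Ttr at 5.65, Apob at 5.16 and Cdh1 at 2.97 lay below it. Of these 10 markers, 0 rose and 2 fell with TGFβ1 at 1 h, and 3 rose and 2 fell at 3 h. At 6 h, 1 rose and 4 fell, and at 10 h 1 rose and 3 fell. Foxa2 was 2.43-fold lower at 3 h, and Afp 1.38-fold lower at 6 h and 1.45-fold lower at 10 h. Apoa1 was 1.39-fold higher at 3 h, and Krt8 1.3-fold higher at 3 h and at 10 h. Of all genes, 1.91% rose and 0.324% fell at 1 h, and 6.73% and 8.55% at 3 h. The shares of all genes at 6 h were 7.77% and 7.96%, and at 10 h 5.07% and 4.06%. The mean of the 10 markers ran from 8.60 to 8.73 over the TGFβ1 arrays and from 8.65 to 8.82 over the basal arrays. None of 6 endothelial and none of 6 Kupffer cell and leukocyte markers lay above the median gene, against 2 of 8 stellate cell and fibroblast markers (Dcn at 13.42 and Des at 6.65). With TGFβ1, 0 of these 8 rose at 1 h, 1 at 3 h, 2 at 6 h and 1 at 10 h, and their mean ran from 5.53 to 5.86 over the TGFβ1 arrays and from 5.56 to 5.73 over the basal arrays. All 4 cholangiocyte markers lay above the median gene, of which 1 rose at 1 h, 3 at 3 h, 3 at 6 h and 2 at 10 h with TGFβ1. The mean of the cholangiocyte list ran from 8.69 to 9.21 over the TGFβ1 arrays and from 8.51 to 8.85 over the basal arrays, and the part of these lists in the results was not tested.

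The promoters of Dusp2, Dusp1 and Dusp5 are shown because these genes had the largest differences among those of the 10 with a promoter entry, in opposite directions. Each runs 5′ to 3′ from 250 bases before to 50 bases after the transcription start of the RefSeq annotation of GRCm38.p6. Dusp2 lies at chr2:127335909-127336208 on the plus strand, Dusp1 at chr17:26508423-26508722 on the minus strand and Dusp5 at chr19:53528895-53529194 on the plus strand. Capitals mark matches to any of 9 motifs on either strand.
Dusp2: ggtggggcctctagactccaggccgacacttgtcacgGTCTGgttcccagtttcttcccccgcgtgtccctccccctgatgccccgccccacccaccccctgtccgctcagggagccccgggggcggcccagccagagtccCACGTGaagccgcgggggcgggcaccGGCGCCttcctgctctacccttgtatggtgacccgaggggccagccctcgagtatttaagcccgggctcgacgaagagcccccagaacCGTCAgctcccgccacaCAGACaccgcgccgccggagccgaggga
Dusp1: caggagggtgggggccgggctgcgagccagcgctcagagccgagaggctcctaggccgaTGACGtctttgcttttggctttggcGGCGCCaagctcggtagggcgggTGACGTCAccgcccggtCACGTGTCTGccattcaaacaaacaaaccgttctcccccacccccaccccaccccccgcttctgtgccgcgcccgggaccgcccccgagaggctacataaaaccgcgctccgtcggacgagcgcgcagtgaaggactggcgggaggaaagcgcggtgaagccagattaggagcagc
Dusp5: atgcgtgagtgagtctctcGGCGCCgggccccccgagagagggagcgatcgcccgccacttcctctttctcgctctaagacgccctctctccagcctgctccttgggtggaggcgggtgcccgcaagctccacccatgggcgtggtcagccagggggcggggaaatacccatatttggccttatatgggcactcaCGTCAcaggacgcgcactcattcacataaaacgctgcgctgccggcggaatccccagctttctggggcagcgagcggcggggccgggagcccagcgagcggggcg

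The motifs searched were the SMAD box GTCTAGAC, the SMAD binding element CAGAC, the GC-rich SMAD element GGCGCC, the cAMP response element TGACGTCA and its part TGACG, which lies within it, the AP-1 site TGANTCA, the ETS core CCGGAA, the E-box CACGTG and the TATA box TATAAA. The element CAGAC was found in the promoters of Dusp2 and Dusp1 and in 49.6% of 32851 promoters of the same length. GGCGCC was found in those of Dusp2, Dusp1 and Dusp5 and in 11.9% of all. CACGTG was found in Dusp2, 109 bases before the start, and in Dusp1, 126 bases before it, and in 7.15% of all promoters. In Dusp1 the E-box and a CAGAC match on the minus strand share 1 base, which gives the run CACGTGTCTG. The full TGACGTCA was found in Dusp1, 143 bases before the start, and in Dusp8, 107 and 63 bases before it, and in 1.79% of all promoters. TGACG was found in 5 of the 8 promoters available (Dusp1, Dusp2, Dusp5, Dusp8 and Dusp16) and in 20.8% of all. CCGGAA was found in Spry2 and in 14.9% of all. The SMAD box, the AP-1 site and the TATA box were in none of the 8 and in 0.213%, 7.81% and 13.6% of all promoters. The promoters of Dusp6 and Dusp10 held none of the 9 motifs, which says only that these letters are not in these windows. Dusp4 and Spry4 had no entry.

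At 0 h, 0 of the 10 genes were higher and 0 lower in the TGFβ1 arm, where 0% of all genes were called in either direction. Without adjustment 740 genes (4.07%) and 1 of the 10, Dusp4, had p under 0.05. At 1 h, 4 of the 10 rose and 0 fell, against 1.91% and 0.324% of all genes. At 3 h, 4 rose and 3 fell, against 6.73% and 8.55% of all genes. At 6 h, 2 rose and 1 fell, against 7.77% and 7.96%, and at 10 h 1 rose and 1 fell, against 5.07% and 4.06%. The 10 genes were chosen with earlier results of these data known, and 9 of them lay above the median gene. Their counts beside the shares of all genes are therefore descriptions, here and below. The median difference of the 10 genes was 0.15 at 1 h, 0.15 at 3 h, −0.02 at 6 h and 0.04 at 10 h, and that of all genes was −0.01, −0.02, −0.03 and 0. The genes that rose at 1 h were Dusp1, Dusp2, Dusp4 and Dusp6. At 3 h Dusp1, Dusp2, Dusp4 and Dusp10 were higher, and Dusp5, Dusp6 and Spry4 were lower.

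**Figure D1:**
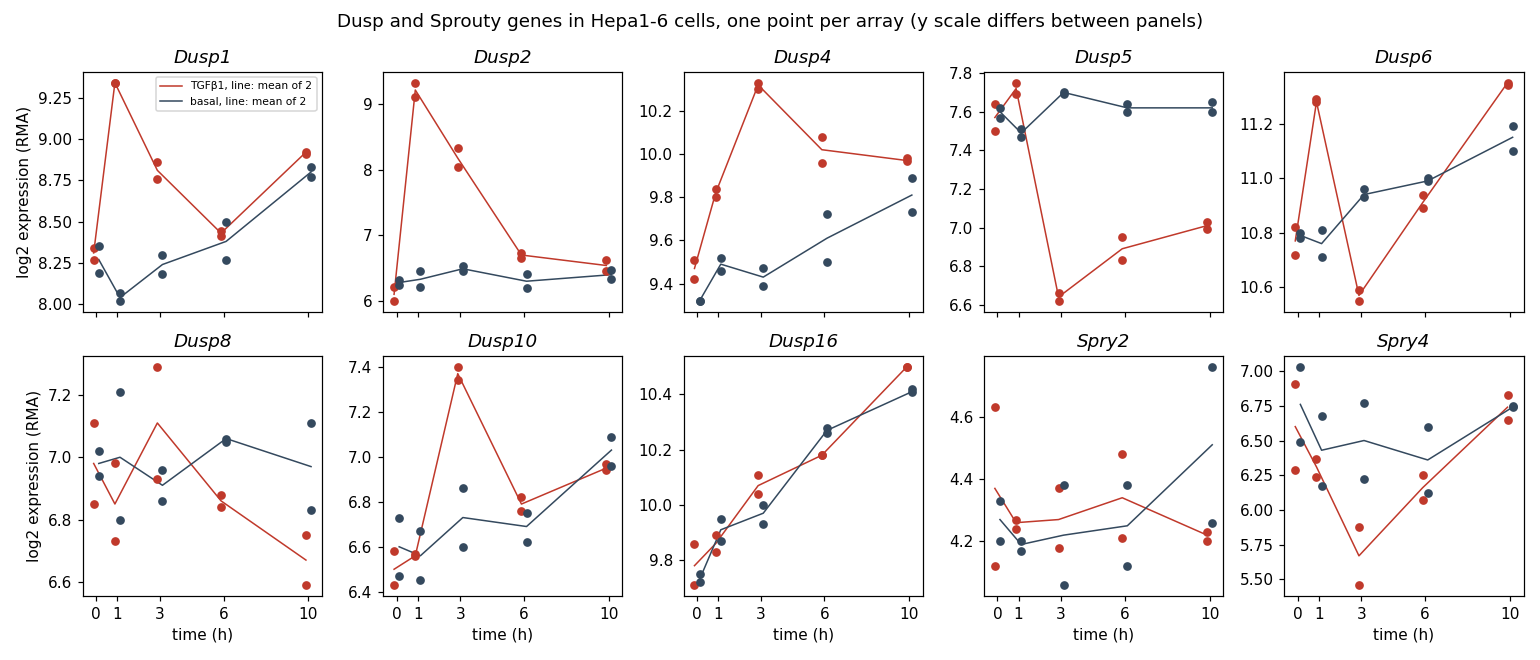
Log2 expression (RMA, y axis, scale differs between panels) of the 10 genes against time in h (x axis), with 1 point per array, TGFβ1-treated cells in red and basal cells in blue, and lines through the means of 2. Dusp2 reached 9.11 and 9.33 with TGFβ1 at 1 h, against 6.21 and 6.46 in basal cells, and Dusp5 reached 6.66 and 6.62 at 3 h, against 7.70 and 7.69 in basal cells.

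Dusp2 encodes a nuclear phosphatase (PAC-1) known as an immediate early gene of activated lymphocytes. In TGFβ1-treated cells, Dusp2 had log2 levels of 6.00 and 6.21 at 0 h, 9.11 and 9.33 at 1 h, 8.33 and 8.04 at 3 h, 6.73 and 6.66 at 6 h, and 6.63 and 6.45 at 10 h. In basal cells, Dusp2 stayed between 6.19 and 6.53 on all 10 arrays. Both TGFβ1 arrays lay above both basal arrays at 1, 3 and 6 h, and the groups overlapped at 10 h. The difference was 2.88 ± 0.12 at 1 h (SE, adjusted p = 4.23e-13), 1.69 ± 0.12 at 3 h (adjusted p = 1.41e-09). At 6 h it was 0.40 ± 0.12 (adjusted p = 0.0307), and at 10 h it was 0.14, with a 95% confidence interval of −0.12 to 0.39. The 6 h call was lost without either TGFβ1 array at 6 h (adjusted p = 0.163 without replicate 1 and 0.0843 without replicate 2) and without replicate 2 of the basal arrays at 6 h (0.264), as it was in 3 other settings (0.0508 to 0.0641). Its means spanned 3.11 over the 10 groups, the widest of the 10 genes. In the order of the groups' levels, TGFβ1 at 1 h, at 3 h and at 6 h stood apart from each other and from the rest, and the 6 groups that followed overlapped from one neighbour to the next. The TGFβ1 arm at 0 h, with 6.00 and 6.21, came last, apart from basal cells at 0 h.

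Dusp1 encodes MKP-1, an immediate early phosphatase that acts on p38, JNK and ERK. In TGFβ1-treated cells, Dusp1 had log2 levels of 8.27 and 8.34 at 0 h, 9.34 and 9.34 at 1 h, 8.86 and 8.76 at 3 h, 8.41 and 8.44 at 6 h, and 8.92 and 8.91 at 10 h. In basal cells, Dusp1 had 8.35 and 8.19 at 0 h, 8.07 and 8.02 at 1 h, 8.18 and 8.30 at 3 h, 8.50 and 8.27 at 6 h, and 8.77 and 8.83 at 10 h. The treated cells were highest at 1 h and both arms were high at 10 h, and the groups were apart at 1, 3 and 10 h and overlapped at 6 h. Dusp1 was 2.46-fold higher at 1 h (1.30 ± 0.07, SE, adjusted p = 8.90e-11) and 1.49-fold higher at 3 h (0.57 ± 0.07, adjusted p = 7.51e-06). The difference was 0.04 at 6 h (95% confidence interval −0.11 to 0.20) and 0.11 at 10 h (−0.04 to 0.27, adjusted p = 0.459). In the order of its levels, TGFβ1 at 1 h came first and TGFβ1 at 10 h second, each apart from the next, then TGFβ1 at 3 h and basal at 10 h, which overlapped, and basal at 1 h came last and apart.

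Dusp4 encodes MKP-2, a nuclear phosphatase of ERK and JNK. In TGFβ1-treated cells, Dusp4 had log2 levels of 9.42 and 9.51 at 0 h, 9.80 and 9.84 at 1 h, 10.33 and 10.30 at 3 h, 9.96 and 10.08 at 6 h, and 9.97 and 9.98 at 10 h. In basal cells, Dusp4 had 9.32 and 9.32 at 0 h, 9.46 and 9.52 at 1 h, 9.39 and 9.47 at 3 h, 9.72 and 9.50 at 6 h, and 9.89 and 9.73 at 10 h. The treated arrays lay above the basal arrays at each of the 5 times, 0 h included, where the difference was 0.15. Dusp4 was 1.26-fold higher with TGFβ1 at 1 h (0.33 ± 0.07, SE, adjusted p = 0.00465), 1.84-fold higher at 3 h (0.88 ± 0.07, adjusted p = 3.07e-09) and 1.33-fold higher at 6 h (0.41 ± 0.07, adjusted p = 0.000132). The 1 h call was lost without replicate 2 of the TGFβ1 arrays at 1 h (adjusted p = 0.0690) or replicate 1 of the basal arrays at 1 h (0.0716). At 10 h the difference was 0.17 (95% confidence interval 0.03 to 0.30, adjusted p = 0.157). TGFβ1 at 3 h was the highest of the 10 groups and stood apart, and TGFβ1 at 6 h and at 10 h, next in order, overlapped.

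Dusp5 encodes a nuclear phosphatase specific for ERK. In TGFβ1-treated cells, Dusp5 had log2 levels of 7.64 and 7.50 at 0 h, 7.69 and 7.75 at 1 h, 6.66 and 6.62 at 3 h, 6.95 and 6.83 at 6 h, and 7.03 and 6.99 at 10 h. In basal cells, Dusp5 stayed between 7.47 and 7.70 on all 10 arrays. The 6 treated arrays at 3, 6 and 10 h all lay below the 10 basal arrays, and both treated arrays at 1 h lay above both basal arrays of that time. Dusp5 fell by 1.06 ± 0.08 at 3 h (SE, adjusted p = 1.64e-09), by 0.73 ± 0.08 at 6 h (adjusted p = 4.72e-07) and by 0.61 ± 0.08 at 10 h (1.53-fold lower, adjusted p = 1.46e-05). At 1 h the difference was 0.23 (95% confidence interval 0.07 to 0.39), which did not pass the test (adjusted p = 0.185). The 3 lowest groups in order were TGFβ1 at 10 h, 6 h and 3 h, each apart from its neighbours.

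Dusp6 encodes MKP-3, the cytoplasmic ERK phosphatase, whose transcript is known as a reporter of ERK activity. In TGFβ1-treated cells, Dusp6 had log2 levels of 10.72 and 10.82 at 0 h, 11.28 and 11.29 at 1 h, 10.55 and 10.59 at 3 h, 10.94 and 10.89 at 6 h, and 11.35 and 11.34 at 10 h. In basal cells, Dusp6 had 10.78 and 10.80 at 0 h, 10.81 and 10.71 at 1 h, 10.96 and 10.93 at 3 h, 10.99 and 11.00 at 6 h, and 11.10 and 11.19 at 10 h. The treated arrays were above the basal arrays at 1 h, below them at 3 h and 6 h, and above them at 10 h. Dusp6 was 1.44-fold higher at 1 h (0.53 ± 0.05, SE, adjusted p = 9.81e-08) and 1.30-fold lower at 3 h (−0.37 ± 0.05, adjusted p = 4.18e-06). The difference of −0.08 at 6 h did not pass the test (95% confidence interval −0.18 to 0.02, adjusted p = 0.320), and Dusp6 was 1.15-fold higher at 10 h (0.20 ± 0.05, adjusted p = 0.00783). The 10 h call was lost without replicate 1 of the TGFβ1 arrays at 10 h (adjusted p = 0.0705), without replicate 1 of the basal arrays at 10 h (0.156) and without the variance trend (0.0610). Among its groups TGFβ1 at 10 h was highest and TGFβ1 at 3 h lowest, both apart, and 6 of the 9 neighbouring pairs did not overlap, the most of the 10 genes.

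Dusp10, Dusp16 and Dusp8 encode the phosphatases MKP-5, MKP-7 and M3/6, which act on JNK and p38. In TGFβ1-treated cells, Dusp10 had log2 levels of 6.43 and 6.58 at 0 h, 6.57 and 6.56 at 1 h, 7.40 and 7.34 at 3 h, 6.76 and 6.82 at 6 h, and 6.94 and 6.97 at 10 h. In basal cells, Dusp10 had 6.73 and 6.47 at 0 h, 6.45 and 6.67 at 1 h, 6.60 and 6.86 at 3 h, 6.62 and 6.75 at 6 h, and 6.96 and 7.09 at 10 h. Both treated arrays at 3 h lay above all other 18 arrays, whereas the groups overlapped at 0, 1 and 10 h and were narrowly apart at 6 h. Dusp10 was 1.55-fold higher at 3 h (0.64 ± 0.11, SE, adjusted p = 0.000329), and at 1, 6 and 10 h the differences were 0.00, 0.10 and −0.07, with confidence intervals that lay between −0.31 and 0.34. The other probe set of Dusp10, at a mean level of 4.92, gave 0.19 ± 0.19 at 3 h (adjusted p = 0.682), and the mean of both probe sets gave 0.41 (adjusted p = 0.0152).

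In TGFβ1-treated cells, Dusp16 had 9.86 and 9.71 at 0 h, 9.83 and 9.89 at 1 h, 10.11 and 10.04 at 3 h, 10.18 and 10.18 at 6 h, and 10.50 and 10.50 at 10 h. In basal cells, Dusp16 had 9.75 and 9.72 at 0 h, 9.95 and 9.87 at 1 h, 9.93 and 10.00 at 3 h, 10.28 and 10.26 at 6 h, and 10.41 and 10.42 at 10 h. Both arms were higher at later times, and the TGFβ1 arrays lay above the basal arrays at 3 h and 10 h and below them at 6 h. None of these differences passed the test: they were −0.06 at 1 h, 0.11 at 3 h, −0.09 at 6 h and 0.09 at 10 h, and the 95% confidence intervals lay between −0.20 and 0.22. Dusp8 ranged from 6.59 to 7.29 over the TGFβ1 arrays and from 6.80 to 7.21 over the basal arrays, and no neighbouring pair of its 10 groups stood apart. Its differences were −0.15, 0.20, −0.20 and −0.30 at 1, 3, 6 and 10 h, the last with an interval of −0.59 to −0.01 and an adjusted p of 0.238.

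Spry4 and Spry2 encode inhibitors of Ras to ERK signalling. In TGFβ1-treated cells, Spry4 had log2 levels of 6.29 and 6.91 at 0 h, 6.37 and 6.24 at 1 h, 5.46 and 5.88 at 3 h, 6.25 and 6.07 at 6 h, and 6.83 and 6.65 at 10 h. In basal cells, Spry4 had 6.49 and 7.03 at 0 h, 6.68 and 6.17 at 1 h, 6.77 and 6.22 at 3 h, 6.60 and 6.12 at 6 h, and 6.75 and 6.74 at 10 h. Both treated arrays at 3 h lay below all other 18 arrays, and the groups overlapped at the other 4 times. Spry4 was 1.78-fold lower at 3 h (−0.83 ± 0.23, SE, adjusted p = 0.0135), with a 95% confidence interval of −1.30 to −0.36. The call was lost without replicate 1 of the TGFβ1 arrays at 3 h (−0.62, adjusted p = 0.181) or replicate 1 of the basal arrays at 3 h (−0.55, adjusted p = 0.234). It was also lost without the variance trend (adjusted p = 0.0549) and with the mean of the 4 probe sets of Spry4 (−0.33, adjusted p = 0.0578), which is a change of more than 1.5 times in the value. The 3 other probe sets of Spry4, at mean levels of 4.42, 4.35 and 4.26, gave differences between −0.23 and −0.04 at 3 h. Spry2 lay below the median gene, between 4.12 and 4.63 on the TGFβ1 arrays and between 4.06 and 4.76 on the basal arrays. Its differences of 0.07, 0.06, 0.09 and −0.30 at 1, 3, 6 and 10 h did not pass the test, with an interval as wide as −0.68 to 0.09 at 10 h.

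**Figure D2:**
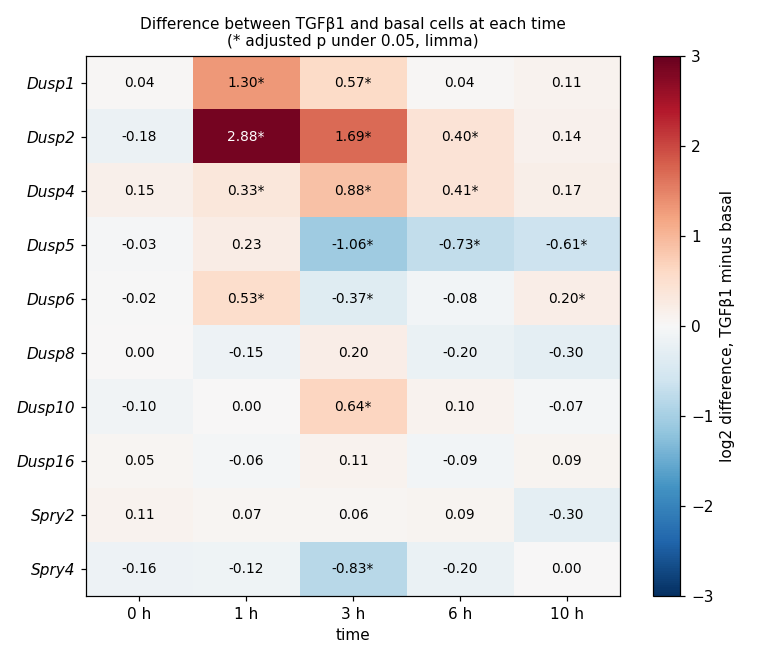
Log2 difference between TGFβ1-treated and basal cells (colour and printed value) for the 10 genes (rows) at 0, 1, 3, 6 and 10 h (columns), with an asterisk at an adjusted p under 0.05 by limma. Dusp2 ran from 2.88 at 1 h to 0.14 at 10 h, Dusp5 was negative at 3, 6 and 10 h, and Dusp6 was 0.53 at 1 h, −0.37 at 3 h and 0.20 at 10 h.

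**Figure D3:**
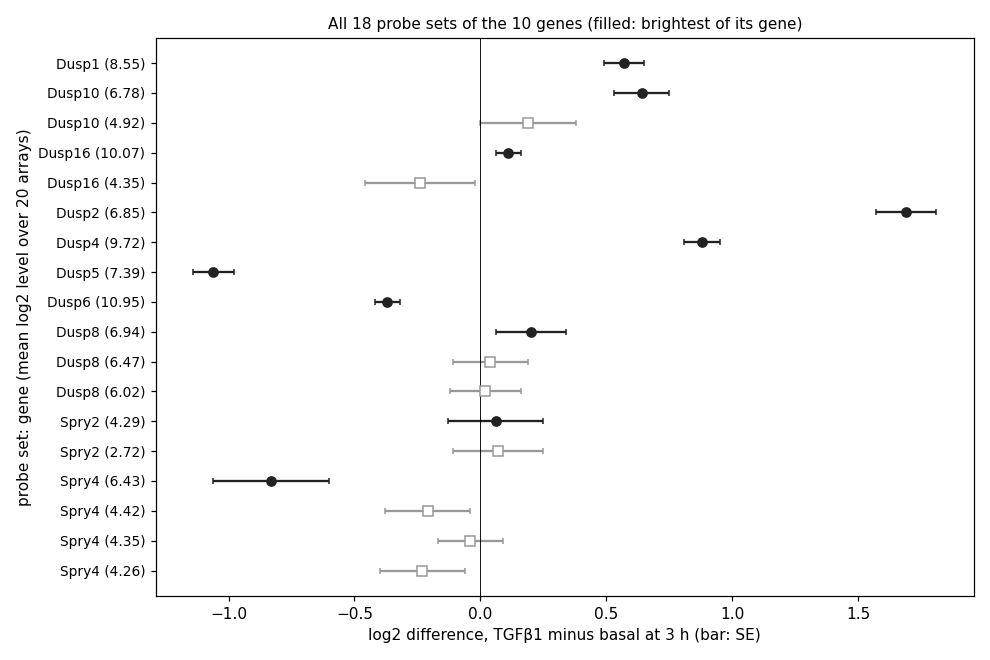
Log2 difference between TGFβ1-treated and basal cells at 3 h (x axis, bar: SE) for all 18 probe sets of the 10 genes, with the mean log2 level over 20 arrays in brackets and the brightest probe set of each gene filled. The 8 other probe sets had mean levels of 2.72 to 6.47 and all lay within 0.24 of 0.

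The 8 other probe sets belonged to Dusp8, Dusp10, Dusp16, Spry2 and Spry4, and 0 of them passed the test against basal cells at any time. Their mean levels ran from 2.72 to 6.47, and in each of these genes they lay below the probe set used. The remaining 5 genes, Dusp1, Dusp2, Dusp4, Dusp5 and Dusp6, had 1 probe set each, so no other probe set can be set beside their values.

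Whether the TGFβ1 difference of a gene changed between times was tested gene by gene. Over 1, 3, 6 and 10 h the difference changed in 6 of the 10 genes by limma's F test, against 11.5% of all genes. These were Dusp2 (adjusted p = 9.88e-10), Dusp6 (3.38e-08), Dusp1 (7.84e-08), Dusp5 (2.44e-07), Dusp4 (9.45e-05) and Dusp10 (0.0139). Dusp8, Dusp16, Spry2 and Spry4 had adjusted p of 0.333, 0.165, 0.702 and 0.283.

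Between 1 h and 3 h the difference changed in 6 of the 10 genes, against 6.41% of all genes. It was more negative at 3 h for Dusp1 (by −0.73 ± 0.11), Dusp2 (−1.19 ± 0.17), Dusp5 (−1.29 ± 0.11) and Dusp6 (−0.90 ± 0.07, SE), and more positive for Dusp4 (0.55 ± 0.09) and Dusp10 (0.64 ± 0.16). The adjusted p was 0.0169 for Dusp10 and 0.000627 or less for the others. That of Dusp10 was lost without replicate 1 of the TGFβ1 arrays at 3 h (adjusted p = 0.0652), replicate 2 of the basal arrays at 1 h (0.107) or replicate 1 of the basal arrays at 3 h (0.117). For Dusp5 the change joined a difference of 0.23 at 1 h that was not past the threshold to the lower level at 3 h, and for Dusp6 it joined a rise to a fall.

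Between 3 h and 6 h the difference changed in 4 of the 10, against 4.55% of all genes: Dusp2 (−1.30 ± 0.17, adjusted p = 0.000109), Dusp1 (−0.53 ± 0.11, 0.00516), Dusp4 (−0.47 ± 0.09, 0.00524) and Dusp6 (0.30 ± 0.07, SE, 0.0109). That of Dusp6 was lost without replicate 1 of the TGFβ1 arrays at 3 h (0.0530) or at 6 h (0.0586), without replicate 1 of the basal arrays at 3 h (0.0539), and without the variance trend (0.0870). Dusp10 gave −0.53 (adjusted p = 0.0665), and Dusp5 gave 0.32 (adjusted p = 0.107). Between 6 h and 10 h only Dusp6 changed, against 2.44% of all genes (0.28 ± 0.07, adjusted p = 0.0232). This call was lost when any of the 8 arrays compared was left out (adjusted p = 0.0628 to 0.174), except replicate 1 of the TGFβ1 arrays at 6 h and replicate 2 of the basal arrays at 10 h. It was also lost with median centring (0.0556), every probe set tested (0.0538) and no variance trend (0.158). The 2 differences that share a time share its arrays and are not independent of each other.

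Basal cells also changed over the 10 h without TGFβ1. At 1 h, 0 of the 10 genes were higher and 0 lower than in basal cells at 0 h, against 0.104% and 0.0824% of all genes. At 3 h, 1 was higher and 0 lower, against 4.95% and 3.21%. At 6 h, 3 were higher and 0 lower, against 10.4% and 10.3%, and at 10 h 5 were higher and 0 lower, against 13.3% and 12.8%. These 4 comparisons share the 2 basal arrays at 0 h. The median of the 10 genes at 10 h was 0.30, against 0.03 for all genes.

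Dusp16 was the gene that rose earliest in basal cells, by 0.23 at 3 h (adjusted p = 0.00759), 0.54 at 6 h (adjusted p = 2.70e-07) and 0.68 at 10 h, which is 1.60-fold (adjusted p = 4.85e-09). The 3 h call was lost without replicate 2 of the basal arrays at 0 h (0.0749) or at 3 h (0.111). With the mean of its 2 probe sets it was lost at 3 h (0.369) and at 6 h (0.20, adjusted p = 0.257), a value more than 1.5 times smaller, and at 10 h the difference was 0.44 (adjusted p = 0.00719). At 10 h in basal cells, Dusp1 was 1.44-fold higher than at 0 h (adjusted p = 1.31e-05), Dusp4 1.4-fold (9.66e-06), Dusp10 1.34-fold (0.00695) and Dusp6 1.28-fold (6.05e-06). The Dusp10 call was lost without replicate 2 of the basal arrays at 0 h (0.142) or at 10 h (0.0841), and with the mean of its 2 probe sets (0.28, adjusted p = 0.0772). At 6 h Dusp6 (0.20, adjusted p = 0.00331) and Dusp4 (0.29, adjusted p = 0.00320) were also above basal cells at 0 h, Dusp4 not without replicate 1 of the basal arrays at 6 h (0.18, adjusted p = 0.0962). Dusp2 and Dusp5 differed by 0.12 and 0.03 between basal cells at 10 h and at 0 h and did not pass the test.

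The counts at the late times differed with the control. Set against the 4 arrays at 0 h of both arms, TGFβ1-treated cells at 10 h were higher in 6 of the 10 genes, against 16.4% of all genes: Dusp1 (0.63), Dusp2 (0.35), Dusp4 (0.58), Dusp6 (0.56), Dusp10 (0.40) and Dusp16 (0.74). Against basal cells of the same time only Dusp6 rose at 10 h. At 6 h the same control gave 4 higher genes, against 12.9% of all genes, with Dusp4 at 0.63, and at 3 h it gave −0.22 for Dusp6.

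The genes whose profiles were most alike were taken by Pearson's r over the 20 arrays, among 934 genes whose group means spanned at least 1. These arrays share their groups and the normalization, so r describes the profiles and was not tested. Dusp2 was most like Smad6 (r = 0.981), Cish (0.963) and Smad7 (0.957). Smad6, an inhibitory SMAD, had group means of 8.48 at 1 h, 7.89 at 3 h, 6.94 at 6 h and 6.92 at 10 h with TGFβ1, against 6.62, 6.63, 6.71 and 6.86 in basal cells. Dusp1 was most like Id1 (0.903), an inhibitor of basic helix-loop-helix factors, Klf10 (0.875) and Bcl2l11 (0.872). Id1 had 12.92 at 1 h, 11.89 at 3 h, 11.52 at 6 h and 11.99 at 10 h with TGFβ1, against 11.13, 11.47, 11.69 and 11.85 in basal cells.

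Dusp4 was most like Csnk1e (0.971), Rhoq (0.968) and Cttnbp2nl (0.940), and Dusp5 most like Fastkd1 (0.926), Foxp2 (0.925) and Fas (0.909). Dusp16 was most like Glipr1 (0.960), Ctsh (0.956) and P4ha2 (0.951). Dusp6 was most like Spry1 (0.863), Marveld2 (0.857) and Bmp4 (0.846). Spry4 was most like Lifr (0.873), Fam13a (0.822) and Pard6b (0.808), and Dusp10 most like Filip1l (0.840), Zfp697 (0.830) and Ell2 (0.798). For Dusp8 and Spry2 the highest r were 0.595 and 0.481. Among the 10 genes themselves r was 0.77 for Dusp1 with Dusp2, 0.76 for Dusp4 with Dusp10, 0.63 for Dusp1 with Dusp4 and 0.60 for Dusp1 with Dusp6. It was −0.69 for Dusp5 with Dusp10 and −0.81 for Dusp4 with Dusp5.

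Spry1, a Sprouty gene outside the 10, came first in the profile of Dusp6. Spry1 had 8.00 and 8.10 with TGFβ1 at 3 h, against 8.96 and 8.92 in basal cells, and 9.50 and 9.48 with TGFβ1 at 10 h, against 9.05 and 9.15 in basal cells. It was 1.86-fold lower at 3 h (−0.89 ± 0.08, SE, adjusted p = 5.78e-08) and 1.31-fold higher at 10 h (0.39 ± 0.08, adjusted p = 0.00332). At 1 h its difference of 0.27 did not pass the test (adjusted p = 0.128), whereas Dusp6 rose by 0.53. Both genes fell at 3 h and rose at 10 h, where the call of Dusp6 did not hold under every alternative. Spry1 was picked for its likeness to Dusp6 on these same arrays, so their likeness is not a separate result. Of the 5 other Sprouty and Spred genes, which encode inhibitors of Ras to ERK signalling, 0 changed at 1 h and at 6 h, 1 rose and 2 fell at 3 h, and 1 rose at 10 h. At 3 h Spred3 was 1.75-fold lower (adjusted p = 0.00257) and Spred2 1.23-fold higher (adjusted p = 0.00182). Their median difference was 0.16 at 1 h, −0.14 at 3 h, −0.17 at 6 h and 0.04 at 10 h. Over all genes, 1.91% rose and 0.324% fell at 1 h, and 6.73% and 8.55% at 3 h. The shares were 7.77% and 7.96% at 6 h, and 5.07% and 4.06% at 10 h.

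Of 19 other dual specificity phosphatase genes, 2 rose and 0 fell at 1 h, 3 rose and 1 fell at 3 h, 2 rose and 2 fell at 6 h, and 4 rose and 0 fell at 10 h. Their median differences lay between −0.06 and −0.01 at these times. Among all genes, 1.91% rose and 0.324% fell at 1 h, and 6.73% and 8.55% at 3 h. It was 7.77% and 7.96% at 6 h, and 5.07% and 4.06% at 10 h. Dusp28, an atypical member of the family, was 1.33-fold higher at 1 h, 1.94-fold at 3 h (0.95 ± 0.09, SE, adjusted p = 5.22e-08), 2.06-fold at 6 h (adjusted p = 1.53e-08) and 1.24-fold at 10 h. Dusp14, also atypical, was 1.39-fold higher at 1 h and 1.51-fold at 3 h. Dusp9, whose product MKP-4 acts on ERK, was 1.25-fold higher at 3 h, 1.41-fold at 6 h and 1.39-fold at 10 h. Dusp3, which encodes the small phosphatase VHR, was 1.5-fold lower at 3 h (adjusted p = 3.66e-06) and 1.17-fold lower at 6 h.

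Of 16 genes of the ERK cascade analysed here, 0 changed at 1 h, 2 rose and 1 fell at 3 h, 4 rose and 1 fell at 6 h, and 2 rose and 0 fell at 10 h. Gab1, a docking protein of receptor tyrosine kinases, was 1.5-fold higher at 3 h (adjusted p = 3.30e-05), and Ptpn11, which encodes the phosphatase SHP2, was 1.22-fold higher at 3 h and 1.23-fold at 6 h. Rps6ka3, which encodes the ERK substrate kinase RSK2, was 1.23-fold lower at 3 h. Of 18 genes of the JNK and p38 cascade, 2 rose and 0 fell at 1 h, and 4 rose and 1 fell at 3 h. At 6 h, 2 rose and 2 fell, and at 10 h 2 rose and 1 fell. Beside both lists, 1.91% of all genes rose and 0.324% fell at 1 h, and 6.73% and 8.55% at 3 h. These shares were 7.77% and 7.96% at 6 h, and 5.07% and 4.06% at 10 h. Map2k3, an activating kinase of p38, was 1.27-fold higher at 1 h, 1.25-fold higher at 3 h and 1.2-fold lower at 10 h. Mapk8, which encodes JNK1, was 1.2-fold higher at 3 h, 1.26-fold higher at 6 h and 1.18-fold higher at 10 h. At 0 h its difference was already 0.18 ± 0.07 (SE, 1.13-fold), which did not pass the test.

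Of 19 genes known to be transcribed in answer to ERK, 9 rose and 1 fell at 1 h, 3 rose and 6 fell at 3 h, 4 rose and 4 fell at 6 h, and 4 rose and 2 fell at 10 h. Their median difference was 0.31 at 1 h and −0.11 at 3 h. At 1 h 9 of the 19 did not pass the test, among them Egr1, Egr2, Egr3, Etv4 and Etv5. By comparison, 1.91% of all genes rose and 0.324% fell at 1 h, and 6.73% and 8.55% at 3 h. The shares of all genes were 7.77% and 7.96% at 6 h, and 5.07% and 4.06% at 10 h. Hbegf, a ligand of the EGF receptor, was 2.13-fold higher at 1 h (1.09 ± 0.05, SE, adjusted p = 3.50e-13) and 1.47-fold lower at 3 h (adjusted p = 1.13e-08). The AP-1 gene Fos was 2.70-fold higher at 1 h and 1.75-fold lower at 6 h. Fosl1 was 1.43-fold higher at 1 h and 1.80-fold lower at 3 h. The zinc finger gene Egr1 had a difference of −0.17 at 1 h (adjusted p = 0.473) and was 1.54-fold lower at 3 h. Myc went the other way, 2.26-fold lower at 1 h and 1.4-fold higher at 6 h, and Ier3 was 1.88-fold higher at 1 h and 1.23-fold higher at 3 h.

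**Figure D4:**
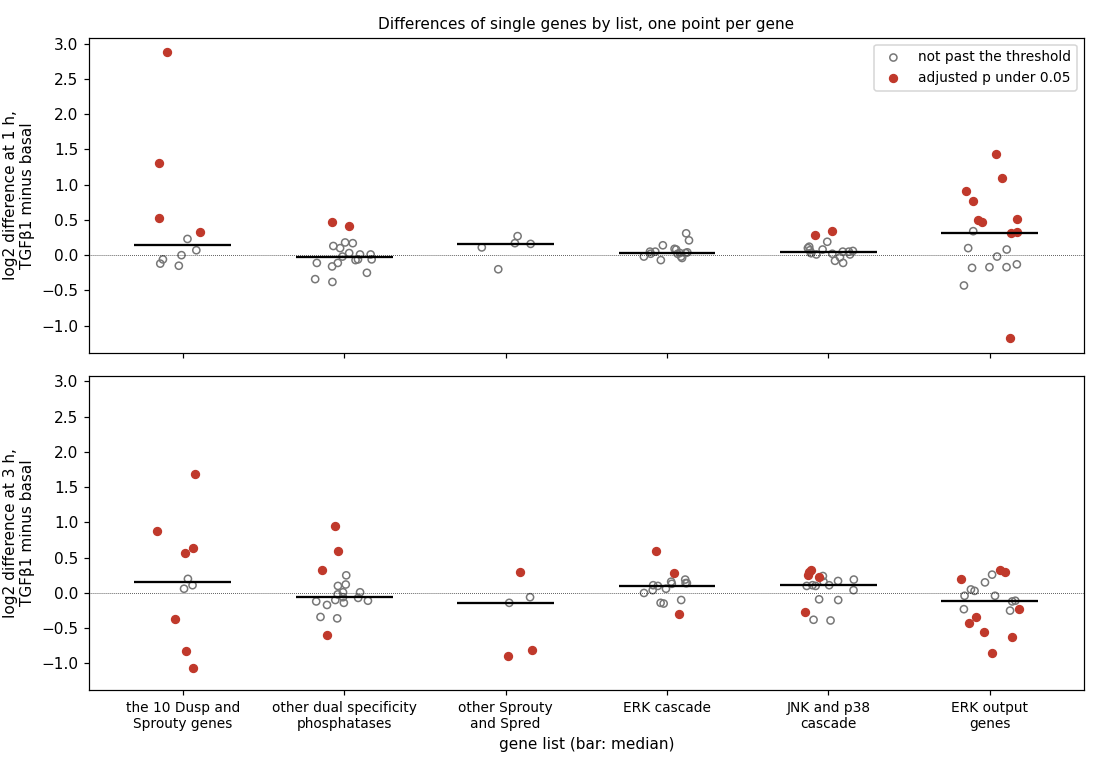
Log2 difference between TGFβ1-treated and basal cells at 1 h (top) and 3 h (bottom) for single genes (points) of the 10 Dusp and Sprouty genes and 5 related lists (x axis), with genes past an adjusted p of 0.05 filled in red and a bar at each median. The ERK output genes have a median of 0.31 at 1 h and −0.11 at 3 h, and the other dual specificity phosphatases have −0.02 and −0.06.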

How the data were processed

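Expression was measured in 20 cultures of Hepa1-6 cells, as biological duplicates per the labels' protocols. The authors deposited 1 log2 value per probe set and array, made with RMA per the submitters' processing notes (background correction, quantile normalization between arrays, summary of the probes of a set). Its version, the chip description file and the build were not given in the sources used here. This method compresses differences of dim probe sets and removes shifts common to most transcripts, so differences are relative. Detection calls were not used and the background level is not known.

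Of 45037 probe sets, 34945 named 1 gene, 932 several and 9160 none. The first kind gave 18193 genes, each taken as its brightest probe set. The fit took all 20 arrays together, with a separate mean for each group, in limma 3.58.1 (R 4.3.3), with a variance trend and 10 residual degrees of freedom, and p-values were adjusted by Benjamini-Hochberg over all genes within a comparison. The median SE of a difference was 0.13, and the number of arrays limits the precision. The fit was tested on simulated data with noise independent between arrays, which cannot show how it behaves where arrays share variation. Duplicates shared at most 0.04% of values, and all arrays were kept.

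Promoter sequences and their coordinates are those of RefSeq (GRCm38.p6), with 8 of the 10 genes matched.

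The 10 genes and the lists were chosen with earlier results of these data known. From each list at most the 4 genes with the lowest adjusted p at a time were named, and for each member the 3 genes with the most similar profile. Some genes that did not pass the test were named as such, and Fosl1, Egr1 and Mapk8 were given at further times. The arrays of Spry1 were chosen for display after its values were seen. Alternatives tried were another normalization, centring, probe set rule, samples in the fit, variance trend, array weights, level filter, replicate block, the 0 h arrays as control, and leaving out each array.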

Additional observations from a re-analysis of the deposited data

Results flagged for a closer look

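Limma's F test was run on the change, between times, of the difference between TGFβ1-treated and basal cells. This difference changed among 1, 3, 6 and 10 h in 6 of the 10 genes, against 11.5% of all genes. For Dusp2 it was 2.88, 1.69, 0.40 and 0.14 on the log2 scale (adjusted p = 9.88e-10). For Dusp6 it was 0.53, −0.37, −0.08 and 0.20 (adjusted p = 3.38e-08). For Dusp1 it was 1.30, 0.57, 0.04 and 0.11 (adjusted p = 7.84e-08). For Dusp5 it was 0.23, −1.06, −0.73 and −0.61 (adjusted p = 2.44e-07). For Dusp4 it was 0.33, 0.88, 0.41 and 0.17 (adjusted p = 9.45e-05), and for Dusp10 0.00, 0.64, 0.10 and −0.07 (adjusted p = 0.0139).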

How the results depend on the processing

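Of 36 member differences past the threshold, 25 stayed past it under every alternative run for them, 11 were lost under at least 1, and 0 reversed; the cause was not tested. The number of members higher with TGFβ1 at 6 h, 2, was 1 with every probe set tested, with only the compared arrays or without the variance trend, 4 against the 4 arrays at 0 h (12.9% of all genes), and 1 to 2 when an array was left out. The number higher at 10 h, 1, was 0 without the trend, 6 against the 4 arrays at 0 h (16.4% of all genes), and 0 to 1 when an array was left out. The number whose difference changed between 6 h and 10 h, 1, was 0 with median centring, every probe set or no trend, and 0 to 1 when an array was left out. The number higher in basal cells at 3 h than at 0 h, 1, was 2 with a further quantile normalization, array weights or the level filter, 0 with the mean of the probe sets, and 0 to 1 when an array was left out. Against the 4 arrays at 0 h, 3 differences that were not past the threshold turned positive and passed it: Dusp6 at 6 h (0.13), Dusp16 at 6 h (0.43) and Dusp10 at 10 h (0.40). An array left alone in its group was assumed to vary like the other groups.

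The deviations of same-numbered TGFβ1 and basal arrays correlated at −0.063 to 0.093 at the 5 times. Over all 45 pairs of groups they correlated at −0.201 to 0.206. These values cannot show whether cultures of the same number were handled together, and the main fit did not pair them. A fit with the replicate block called 449 genes at 1 h and 2891 at 3 h, against 407 and 2780 without it, and 4 and 7 members at these times in both fits. Spry2, below the median gene, has no value under the level filter.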
